A study of Mus musculus with 3 samples.

Results

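The tubulin genes described here are 9 of the 55401 mouse gene identifiers in the count tables, followed through 3 libraries of single adult mouse heart cells. They were chosen by name as the alpha-tubulin genes Tuba1a, Tuba1b, Tuba1c and Tuba4a (4 genes) and the beta-tubulin genes Tubb2a, Tubb2b, Tubb4b, Tubb5 and Tubb6 (5 genes), and all 9 had a row in each table. Of them, 8 reached a mean of 10 CPM (counts scaled to a total of 1000000) over both sides of every main comparison, while Tubb2b did not reach it in any. Cells were dispensed into the nanowells of an iCELL8 chip, wells with 1 live cell by imaging were sequenced, and each value below is a read count per gene and well. CPM was taken over nuclear-encoded genes, so that the mitochondrial share of a well did not enter the total.

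The series title names hearts of the genotype Myh6-MCM;Ino80fl/fl, in which the promoter of Myh6, the adult cardiac myosin gene, limits the recombinase to heart muscle cells, and its design text speaks of induced Ino80, the ATPase subunit of a chromatin remodelling complex. All 3 libraries were labelled as tamoxifen-treated adult cardiomyocytes from heart. The library of day 1 carried the genotype label D1_INO80_OE, that of day 2 carried D2_INO80_OE, and that of day 3 carried 2 labels, D3_INO80_OE and D3_Ctrl, with no map from wells to label, so that day 3 was a mixture. Day 0, named in the design text, was not analysed here, and neither the number nor the age of the animals is given in those texts.

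Microtubules are hollow polymers of alpha- and beta-tubulin dimers, and each subunit comes from a family of genes whose products, the isotypes, differ mostly in an acidic C-terminal tail. That tail is where microtubules are glutamylated and where the last residue of most alpha-tubulins, a tyrosine, can be removed and put back. In heart muscle cells microtubules run along the sarcomeres, are tied to them through desmin filaments, and resist contraction when they are dense and detyrosinated, a state known from failing hearts.

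The family's coding sequences explain both how the isotypes differ and how far their reads can be told apart, so the ends that encode the tails are shown here for 5 members. Each is the last 60 coding bases of a GENCODE M21 transcript on the coding strand, with the codon before the stop codon in capitals. All coordinates are mm10.
Tuba1c: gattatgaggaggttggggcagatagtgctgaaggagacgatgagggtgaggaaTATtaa
Tuba4a: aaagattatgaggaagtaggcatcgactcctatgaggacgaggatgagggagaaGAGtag
Tubb2a: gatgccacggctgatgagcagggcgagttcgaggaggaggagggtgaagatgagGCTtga
Tubb4b: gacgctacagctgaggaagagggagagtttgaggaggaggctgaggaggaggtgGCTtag
Tubb5: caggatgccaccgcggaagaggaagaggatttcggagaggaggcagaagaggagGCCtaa

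Tuba1c ended in TAT, a codon of tyrosine. Tuba4a ended in GAG, a glutamate codon, and so encodes an alpha-tubulin that lacks the terminal tyrosine from the start. Glutamate codons, GAA or GAG, made up 6 and 7 of the last 19 codons of Tuba1c and Tuba4a, and 8, 10 and 9 of those of Tubb2a, Tubb4b and Tubb5.

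The 3 Tuba1 genes lie close together on chromosome 15. Tuba1a is at chr15:98949837-98953703 on the minus strand, Tuba1b at chr15:98931425-98934565 on the minus strand and Tuba1c at chr15:99029891-99038110 on the plus strand. Their coding sequences were 97.1% to 98.3% identical, and 75.5% of the 50-base stretches in the exons of Tuba1a, 83.1% of those of Tuba1b and 61.0% of those of Tuba1c also occurred in another gene. The exons of Tuba1a and Tuba1b also overlap those of Gm49450 on the same strand, and those of Tuba1b overlap Gm41396 on the other strand. The treatment of reads that fit several genes is not given, so the split of counts among the 3 Tuba1 genes is uncertain.

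Tuba4a is at chr1:75214228-75219865 on the minus strand, where its exons overlap those of Stk16, a kinase gene on the opposite strand, over 47.7% of its 50-base stretches. The strand setting of the counting is not given either, so reads of the 2 genes cannot be told apart. Stk16 was listed at 21.6, 25.5 and 27.7 CPM in days 1, 2 and 3, far below Tuba4a.

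Among the beta-tubulin genes, Tubb2a at chr13:34074274-34078007 and Tubb2b at chr13:34126748-34130466, both on the minus strand, were 96.5% identical in coding sequence. Tubb4b, at chr2:25222160-25224702 on the minus strand, shared 43.6% of its 50-base stretches with the pseudogene Tubb4b-ps1, which was listed at 0.05 CPM or less in every main group. Its exons also overlap those of Fam166a on the opposite strand. Tubb5, at chr17:35833921-35838306 on the minus strand, and Tubb6, at chr18:67390717-67402749 on the plus strand, shared 0.115% and 0% of these stretches with other genes, which makes them the 2 members least exposed to misassigned reads.

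The wells compared were those outside the clusters named for a non-muscle class, called the cardiomyocyte compartment here: 582 wells of day 1, 630 of day 2 and 882 of day 3. They are the wells of rebuilt clusters that markers did not name, with 21 atrial-like wells on day 1 and 4 on day 3. The ventricular marker list (13 of 13 genes detected) summed to 121134, 124292 and 119379 CPM, against 424, 256 and 199 CPM for fibroblast and 117, 124 and 109 CPM for macrophage markers. Erythroid markers, at 37.5, 375 and 345 CPM, were low on day 1 like most tubulin genes, atrial markers were at 6774, 211 and 1638 CPM, and B cell markers at 2.24, 418 and 3.23 CPM, with Igkc alone at 416 CPM on day 2. Their part in the differences between days was not tested. Most wells of each day formed clusters of their own (523 wells of day 1, 593 of day 2, and 458 and 411 of day 3). Median reads per well were 350998, 354394 and 361533, and the median mitochondrial share was 40.7%, 43.6% and 21.3%. The 3 libraries shared 247 to 278 well barcodes pairwise. Ino80 itself was at 2851, 4941 and 1191 CPM, so the 2 earlier libraries were high in it and the day 3 mixture lay lower. The title names a floxed Ino80 allele and the labels write OE, and these values do not settle which alleles the animals carried. There was 1 library per day, so no test was possible. Intervals are 95% counting intervals and understate the error, since reads are not independent molecules and wells are not replicates.

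Every measured tubulin gene was at a higher level on day 2 than on day 1. The summed alpha-tubulin level was 334 CPM on day 1, 596 CPM on day 2 and 684 CPM on day 3, and the summed beta-tubulin level was 179, 372 and 383 CPM. Tubb6, Tubb4b and Tuba4a (3 of 8 genes) were at least 2-fold higher on day 2, where 4.44% (285) of the 6426 measured genes were. With median-of-ratios size factors 1 of 8 was, and 174 of all measured genes were. The median log2 ratio was 0.93 over the 8 genes and 0.13 over all measured genes.

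Among the alpha-tubulin genes, Tuba4a was at 167 CPM on day 1, 348 CPM on day 2 and 309 CPM on day 3. Day 1 was thus the low library and the later 2 lay close together, with a day 2 to day 1 log2 ratio of 1.06 (interval 1.04 to 1.08). Tuba1c was at 73.1, 113 and 253 CPM, so that day 3 stood above both earlier days. Tuba1a, the isotype best known from developing neurons, was at 26.3, 41.9 and 55.2 CPM, in the order of the days, but at 21.1, 56.6 and 51.2 CPM in wells with 25% to 35% mitochondrial counts. Tuba1b, a widely expressed isotype, was at 68.0, 93.5 and 66.5 CPM, with day 2 alone higher.

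Among the beta-tubulin genes, Tubb4b was at 103 CPM on day 1, 222 CPM on day 2 and 200.5 CPM on day 3, a day 2 to day 1 log2 ratio of 1.11. Its level followed that of Tuba4a, low on day 1 only. Tubb6, an isotype known from regenerating and dystrophic skeletal muscle, was at 16.0, 39.2 and 67.8 CPM. Its log2 ratio was 1.30 for day 2 and 2.09 for day 3 against day 1, the highest of the 8 genes in both. In wells with 25% to 35% mitochondrial counts it was not the highest. There the ratio of Tubb6 was 1.27 for day 2, above that of Tuba1b (0.45) only. For day 3 it was 1.13, below those of Tuba1c, Tuba1a and Tuba4a. Tubb2a was at 34.98, 66.2 and 70.8 CPM and Tubb5, an isotype widely expressed in dividing cells, at 22.6, 43.7 and 42.8 CPM. Both were low on day 1 and close together afterwards. Tubb2b was listed at 2.50, 1.01 and 1.51 CPM, and 33.2% of its day 1 counts lay in just 1 well.

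In day 3 against day 1, Tuba1a, Tuba1c, Tubb2a and Tubb6 (4 of 8 genes) were at least 2-fold higher. This held for 4.83% (297) of measured genes. With median-of-ratios size factors 6 of 8 were, and 370 of all measured genes were. Without these factors, 1 of 8 genes, Tuba1c, was at least 2-fold higher in day 3 against day 2, where 3.03% of measured genes were. These comparisons share libraries, and the mitochondrial share moved with them. In wells with 25% to 35% mitochondrial counts, 85 of day 1 and 130 of day 2, 7 of 8 genes were at least 2-fold higher on day 2, where 12.2% of measured genes were, and Tuba1c was at 49.1 and 161 CPM there. In the 136 such wells of day 3 Tuba1c was at 176 CPM, and 0 of 8 genes were 2-fold apart from day 2, where 21.6% of measured genes were. This choice of wells also changed Ino80. Its median was 1952, 2561 and 30.3 CPM in them on days 1, 2 and 3, against 2545, 5187 and 110 CPM over all compartment wells. The part of either was not tested.

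**Figure D1:**
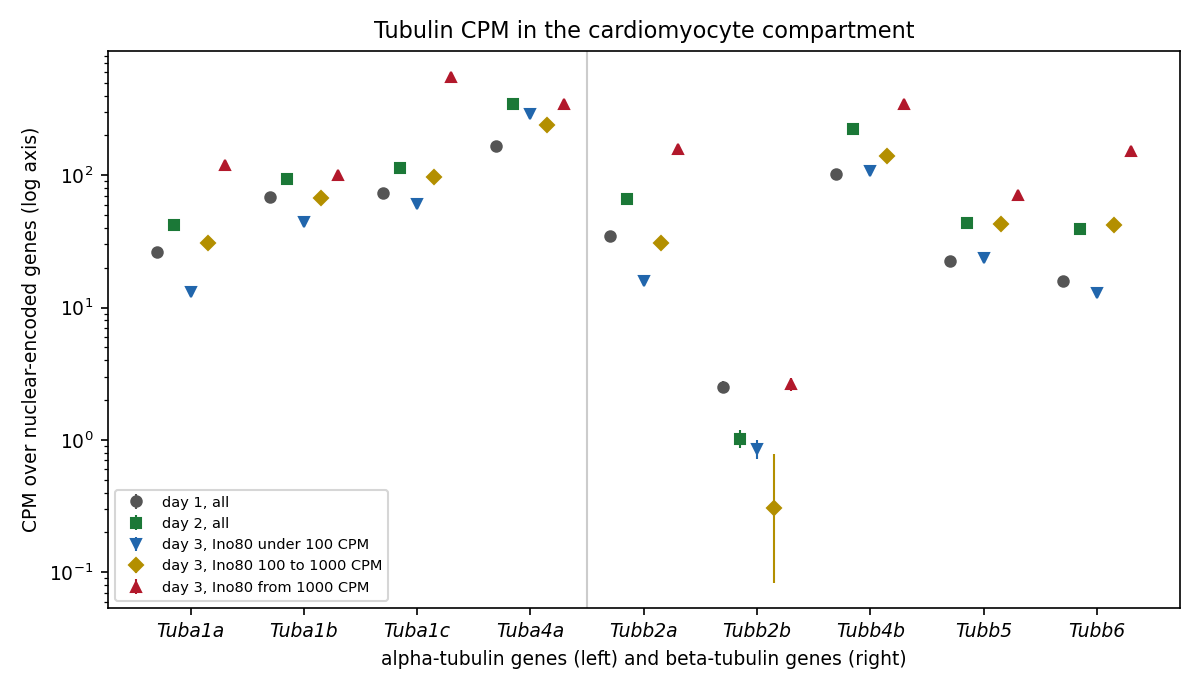
CPM of each tubulin gene (log axis) in the compartment wells of day 1, day 2 and the 3 Ino80 groups of day 3, with 95% counting intervals, mostly smaller than the symbols. The red triangles (day 3, Ino80 from 1000 CPM) lie highest for every gene except Tuba4a, where day 2 is at 348 CPM and they are at 344 CPM.

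The 1000 and 100 CPM limits of Ino80 divided the day 3 mixture into wells with and without high Ino80, and 7 of 8 tubulin genes, all but Tuba4a, had a larger ratio between these than between any 2 days. In wells with 25% to 35% mitochondrial counts this did not hold for Tubb5 either, with a log2 ratio of 1.24 between these and 1.55 between days 2 and 1. Ino80 was at 3034 CPM over the high, 337 CPM over the middle and 18.1 CPM over the low wells. Of the 882 wells, 399 had Ino80 at 1000 CPM or above, 437 were under 100 CPM and 46 lay between. The groups are ranges of 1 measured gene within 1 library, and no well was assigned to a genotype. They nearly matched a split by cluster. The 458 day 3 wells of a cluster led by Gpr22 had at most 568 CPM of Ino80. The 411 day 3 wells of another, led by Sprr1a, had a median of 2769 CPM. Ino80 level and cluster can thus hardly be told apart here, and the part of cluster in the tubulin values was not tested. In the Ino80-high wells 7 of 8 tubulin genes were at least 2-fold higher, where this held for 23.2% of the 5988 measured genes, and another 11.5% of them were 2-fold or more lower. The median log2 ratio was 2.44 over the 8 genes and 0.26 over all measured genes. The summed alpha-tubulin level was 1121 CPM in the high and 408 CPM in the low wells, and the summed beta-tubulin level 730 and 161 CPM.

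The largest differences were those of Tubb6, Tubb2a, Tuba1c and Tuba1a. Tubb6 was at 153 CPM in the high, 41.9 CPM in the middle and 12.9 CPM in the low wells, a log2 ratio of high to low of 3.57 (interval 3.502 to 3.631). Tubb2a was at 157, 30.8 and 15.8 CPM, with a log2 ratio of 3.31. Tuba1c was at 557, 96.7 and 60.2 CPM, with a log2 ratio of 3.21 (interval 3.18 to 3.24), and Tuba1a at 120.5, 30.9 and 13.2 CPM, with 3.19. In each of the 4 the middle wells lay nearer to the low than to the high wells in CPM. Mitochondrial counts were 25% to 35% in 43 high and 82 low wells. Their log2 ratios were 2.74 for Tubb6, 1.63 for Tubb2a, 2.39 for Tuba1c and 3.37 for Tuba1a, and 7 of 8 genes were still at least 2-fold higher. Among all genes measured in these wells 1801 were higher and 1000 lower, against 1387 and 686 over all high and low wells. Over all high and low wells, 1.57% of measured genes had a ratio at or above that of Tubb6 and 2.27% at or above that of Tuba1a.

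Tubb4b, Tubb5 and Tuba1b differed less. Tubb4b was at 346, 139 and 108 CPM, a log2 ratio of 1.68. Tubb5 was at 71.5, 43.0 and 23.5 CPM, a ratio of 1.61, and Tuba1b at 99.7, 67.8 and 44.2 CPM, a ratio of 1.17. The ratio of Tuba1b was 0.92 with median-of-ratios size factors, under 2-fold.

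Tuba4a, the alpha-tubulin with no encoded tyrosine, was nearly level. It was at 344 CPM in the high, 241 CPM in the middle and 291 CPM in the low wells, a log2 ratio of 0.24 (interval 0.22 to 0.26) that became -0.01 with median-of-ratios size factors. Of all measured genes, 50.6% had a ratio at or above it. Stk16, which overlaps it, was at 53.2 CPM in the high and 10.8 CPM in the low wells.

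The same differences showed in single wells. The median well had 471 CPM of Tuba1c in the high group (quartiles 226 and 799). In the low group it had 8.76 CPM (quartiles 3.36 and 36.5), so the interquartile ranges of the 2 groups did not overlap. How many of all measured genes had ranges apart in this way was not counted. For Tubb2a the medians were 118 and 0 CPM, with quartiles of 36.0 and 256 against 0 and 5.68. For Tubb6 they were 80.9 and 0 CPM, with quartiles of 8.45 and 242 against 0 and 3.34. For Tuba4a they were 270 and 218 CPM, with quartiles of 94.7 and 522 against 64.5 and 428, which overlapped over most of their range.

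The share of wells with at least 1 Tuba1c count was 99.0% in the high and 84.4% in the low group, and 96.2% and 38.2% after each well was thinned to 30000 counts (4 and 3 wells were too shallow). For Tubb6 it was 82.7% and 41.4%, and 64.8% and 12.7% after thinning. For Tuba4a it was 97.0% and 96.8%, and 90.4% and 83.6% after thinning. No class of cells here lacks tubulin, so there is no share to read as background from free RNA. Median reads per well were 306900 and 437537, and the median mitochondrial share was 19.7% and 22.2%.

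**Figure D2:**
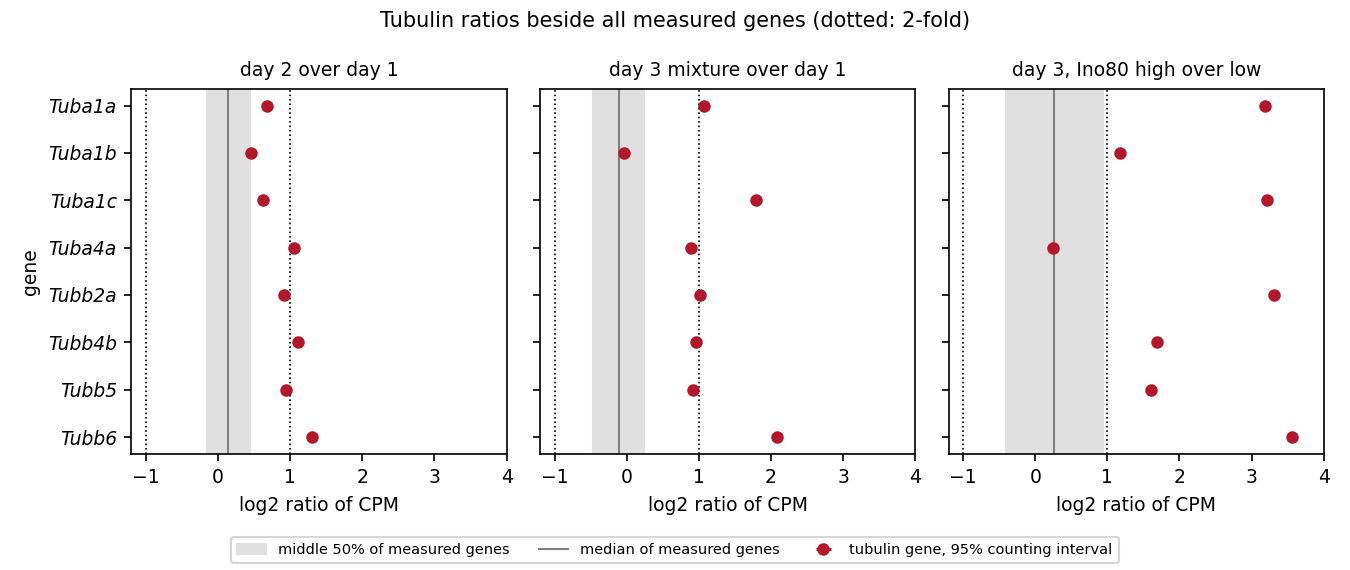
Log2 ratios of CPM for the 8 measured tubulin genes (points, with 95% counting intervals that are mostly hidden) in 3 comparisons, beside the median and the middle 50% of all measured genes. In the right panel 7 of 8 genes lie beyond 2-fold and Tuba4a lies at 0.24, next to the median of all genes at 0.26.

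Other values moved with the same split. Myh6, the main adult cardiac myosin, was at 4632 CPM in the high and 16166 CPM in the low wells, and the whole ventricular list at 81168 and 144055 CPM. Macrophage markers summed to 219 and 35.2 CPM (12 of 12 detected), erythroid markers to 602 and 194.8 CPM (5 of 7 and 7 of 7 detected, with Slc4a1 among those at 0 in the high wells), fibroblast markers to 263 and 161 CPM (10 of 10), and endothelial markers to 1107 and 1075 CPM (12 of 12). Without Cd36, which was at 418 CPM in the high and 735 CPM in the low wells, the endothelial sums were 689 and 340.3 CPM, and 9 of 12 of its markers were higher in the high wells. Atrial markers (9 of 9) summed to 2533 and 1071 CPM. With atrial-like wells left out, 7 of 8 tubulin genes were still at least 2-fold higher. Among all measured genes 1387 were then at least 2-fold higher and 681 lower. Cell division markers (10 of 10 detected in both) summed to 65.2 and 71.4 CPM, but most of that was Cenpf, at 46.9 and 69.7 CPM. Without it they summed to 18.3 CPM in the high and 1.71 CPM in the low wells, and 7 of 10 were higher in the high wells, among them Mki67 at 11.1 against 0.17 CPM. The part of none of these lists in the tubulin values was tested.

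Above the upper limit most tubulin levels had no common order with Ino80. From wells under 10 CPM of Ino80 to wells of 10 to 100, 100 to 1000, 1000 to 2000, 2000 to 4000 and from 4000 CPM, Tubb6 was at 8.24, 15.2, 41.9, 130, 165 and 129 CPM. Tuba1c was at 56.7, 62.0, 96.7, 608, 526 and 625 CPM over the same intervals. Tuba1c stepped up mainly across 1000 CPM, from 96.7 to 608 CPM. Tubb6 also rose below that limit, from 8.24 to 41.9 CPM, before reaching 130 CPM. Both were without order above 1000 CPM. Tubb2a, at 174, 158 and 135 CPM in the upper 3 intervals, was lower in each next interval. Tuba1a, at 110.0, 112 and 168 CPM there, was instead higher in the last. Tubb4b was at 328, 357 and 321 CPM and Tubb5 at 88.5, 62.0 and 89.6 CPM, with no order. The interval of 100 to 1000 CPM held 46 wells, and 1 of these wells held 23.8% of the Tuba1a counts and 1 held 26.6% of the Tubb6 counts.

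**Figure D3:**
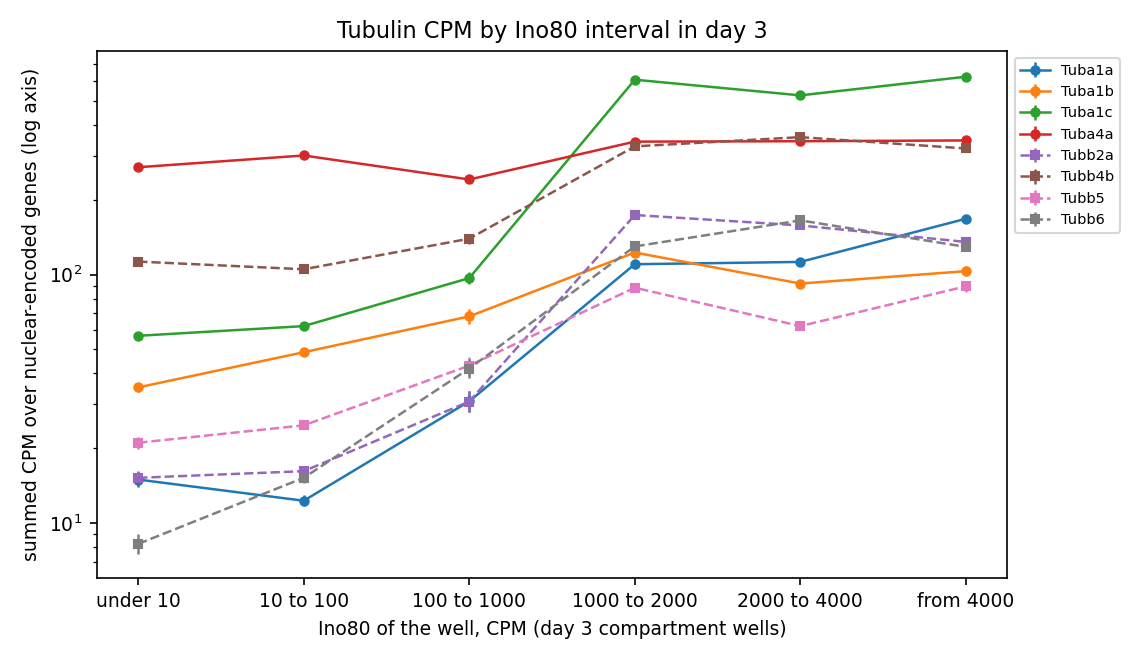
Summed CPM of the 8 measured tubulin genes (log axis) in 6 intervals of the Ino80 level of day 3 compartment wells, with 95% counting intervals. Most lines step up between the third and the fourth interval, as Tuba1c does from 96.7 to 608 CPM, while Tuba4a stays between 241 and 346 CPM.

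Within the day 1 and day 2 libraries, wells split at the median Ino80 level showed no such step. The median Ino80 of the upper and lower groups was 3856 and 1597 CPM on day 1 and 7328 and 2675 CPM on day 2, so all 4 medians lay above 1000 CPM, although single wells of the lower groups reached down to 0 CPM on day 1 and 296 CPM on day 2. On day 1, 0 of 8 tubulin genes were 2-fold apart, where 12.2% of measured genes were. Tuba1c was at 69.7 CPM in the upper and 76.1 CPM in the lower group, and Tubb6 at 16.1 and 15.9 CPM. On day 2, 0 of 8 genes were 2-fold higher and 1 was 2-fold lower, where 10.2% and 2.6% of measured genes were. That gene was Tuba1a, at 27.0 CPM in the upper and 54.9 CPM in the lower group. Tubb6 was at 27.8 and 49.2 CPM and Tuba4a at 375 and 325 CPM. The median mitochondrial share of these 2 groups of day 2 was 48.4% and 27.5%, and its part was not tested.

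Set beside the day 3 wells low in Ino80, the earlier libraries differed from them less than the day 3 high wells did, except for Tuba4a. Its log2 ratio to the low wells was -0.80 for day 1, 0.26 for day 2 and 0.24 for the day 3 high wells. Day 1 was at least 2-fold higher for 1 of 8 genes, where 11.6% (693) of measured genes were. With median-of-ratios size factors 0 of 8 were higher and 1 was lower, beside 422 higher and 382 lower of all measured genes. The gene at least 2-fold higher was Tubb2a, at 34.98 against 15.8 CPM, a log2 ratio of 1.14 that was 0.06 in wells with 25% to 35% mitochondrial counts, while Tuba4a had a log2 ratio of -0.80, at 167 against 291 CPM. Tubb4b and Tubb5 were close to the low wells, at 103 against 108 CPM and 22.6 against 23.5 CPM. Day 2 was at least 2-fold higher for 5 of 8, where 18.8% (1152) of measured genes were. Tubb2a led at 66.2 CPM, with a log2 ratio of 2.06. With median-of-ratios size factors day 2 was at least 2-fold higher for 3 of 8, and for 485 of all measured genes. Library and Ino80 level cannot be told apart in these comparisons.

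The day 3 high wells were also above both earlier libraries, whose wells are high in Ino80 too. Against day 1, 7 of 8 tubulin genes were at least 2-fold higher, where 13.4% of measured genes were, and against day 2, 4 of 8 were, where 9.18% of measured genes were. Tuba1c, at 557 CPM, was 7.63-fold above day 1 and 4.93-fold above day 2. Tuba1b and Tuba4a, at log2 ratios of 0.09 and -0.02 to day 2, were level with it.

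The makeup of each family differed between the groups. Levels were put on the scale of CPM per kilobase of exon, over all annotated exons of a gene. This scale adjusts for length but not for reads that fit several genes, so shares and ranks are approximate. On it, Tubb4b was the most abundant beta-tubulin everywhere in the compartment. It held 57.7% of the beta family on day 1, 60.04% on day 2, 69.5% in the day 3 low and 47.5% in the day 3 high wells. Tubb2a held 25.4%, 23.2%, 13.3% and 28.0%, and Tubb6 held 7.7%, 9.1%, 7.1% and 17.97%. In these 4 groups Tubb5 stayed between 6.2% and 9.5% (11.1% in the middle wells), and Tubb2b at 1.3% or less.

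In the alpha family the leading gene on this scale changed, with the split of reads among the Tuba1 genes uncertain. Tuba4a held 35.3% on day 1, 43.4% on day 2 and 57.9% in the day 3 low wells, but 20.4% in the high wells, where Tuba1c held 53.4%. Tuba1c held 24.98%, 22.8% and 19.4% in the other 3 groups. Tuba1b held 28.4%, 23.0%, 17.3% and 11.6% in the same order of day 1, day 2, day 3 low and day 3 high, and Tuba1a 11.4%, 10.7%, 5.4% and 14.6%.

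On day 1 the order of the per-kilobase levels was Tubb4b at 49.3, Tuba4a at 45.1, Tuba1b at 36.3, Tuba1c at 31.9, Tubb2a at 21.7, Tuba1a at 14.6, Tubb5 at 6.81, Tubb6 at 6.55 and Tubb2b at 1.09 CPM per kilobase. The counting intervals of Tubb5 and Tubb6 overlapped, and those of the other neighbours did not. These intervals cover neither reads that fit several genes nor the choice of exon length. In the day 3 high wells the order began with Tuba1c at 244, Tubb4b at 166, Tubb2a at 97.6 and Tuba4a at 92.9 CPM per kilobase.

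**Figure D4:**
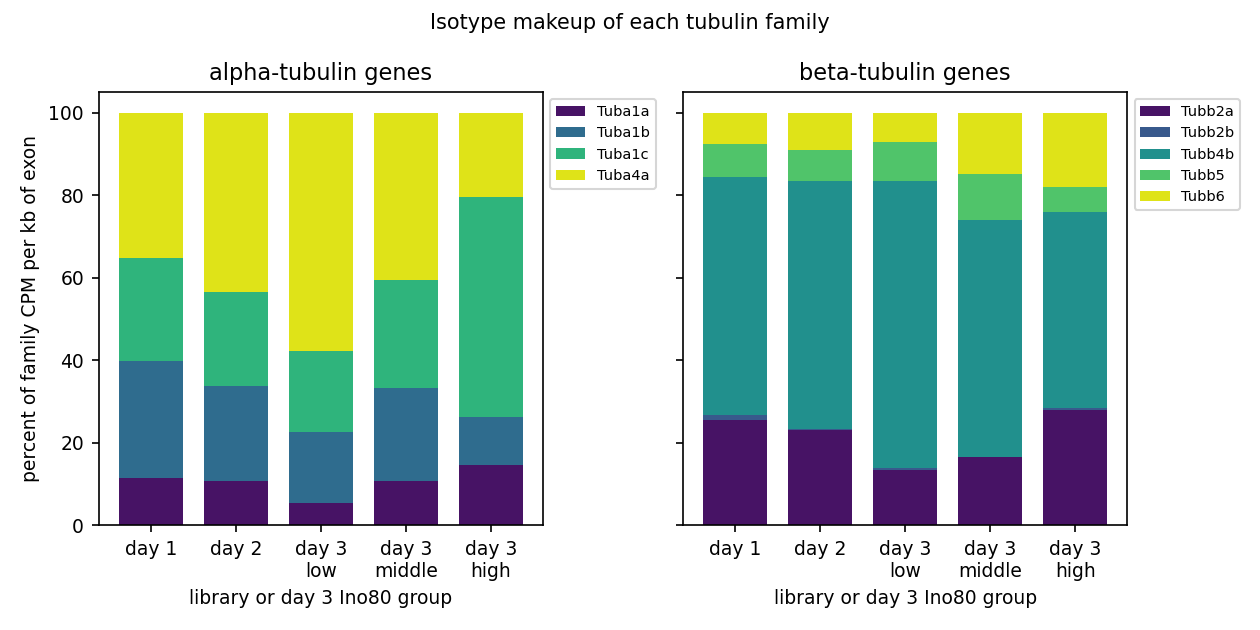
Percent of the alpha-tubulin and beta-tubulin CPM per kilobase of exon held by each gene in the compartment wells of day 1, day 2 and the Ino80 groups of day 3 (stacked bars, each adding up to the whole family). Tuba1c takes 53.4% of the alpha family in the day 3 high wells against 19.4% in the low wells, and Tubb6 17.97% against 7.1% of the beta family.

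The same split appeared in day 3 wells named for non-muscle cells, which also held much cardiomyocyte RNA. In macrophage-like wells, 43 high and 35 low in Ino80, 6 of 8 tubulin genes were at least 2-fold higher in the high wells, where 33.1% of measured genes were. Tuba1c was at 635.5 and 41.2 CPM, Tubb2a at 152 and 14.3 CPM and Tuba1a at 86.5 and 10.5 CPM, each with the high wells far above the low. Tuba4a was at 314 and 324 CPM, with a counting interval of the log2 ratio (-0.11 to 0.01) that spanned 0, and Tubb5 at 76.7 and 55.5 CPM. The ventricular list summed to 71775 and 127984 CPM in these wells, against 3549 and 2931 CPM for the macrophage list (12 of 12 detected), so their tubulin reads cannot be assigned to one cell type.

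In fibroblast-like wells, 31 high and 42 low, 7 of 8 genes were at least 2-fold higher in the high wells, where 37% of measured genes were. Tubb6 was at 229 and 7.65 CPM, Tubb5 at 259 and 13.9 CPM and Tubb2a at 150.4 and 8.88 CPM, while Tuba4a was level at 312 and 307 CPM. Tubb2b, low in the compartment, was at 7.46 CPM in the high wells. The 2 groups came from different clusters: of the 80 day 3 wells of this class, 34 were in a cluster led by Timp1 and Postn with dividing-cell genes such as Prc1, and 46 in one led by Dcn and Gsn. The first cluster had 437 CPM of cell division markers (10 of 10 detected) and the other 41.1 CPM (6 of 10, with Top2a, Ccnb2, Aurkb and Tpx2 at 0). The part of cell division in the tubulin values was not tested.

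**Figure D5:**
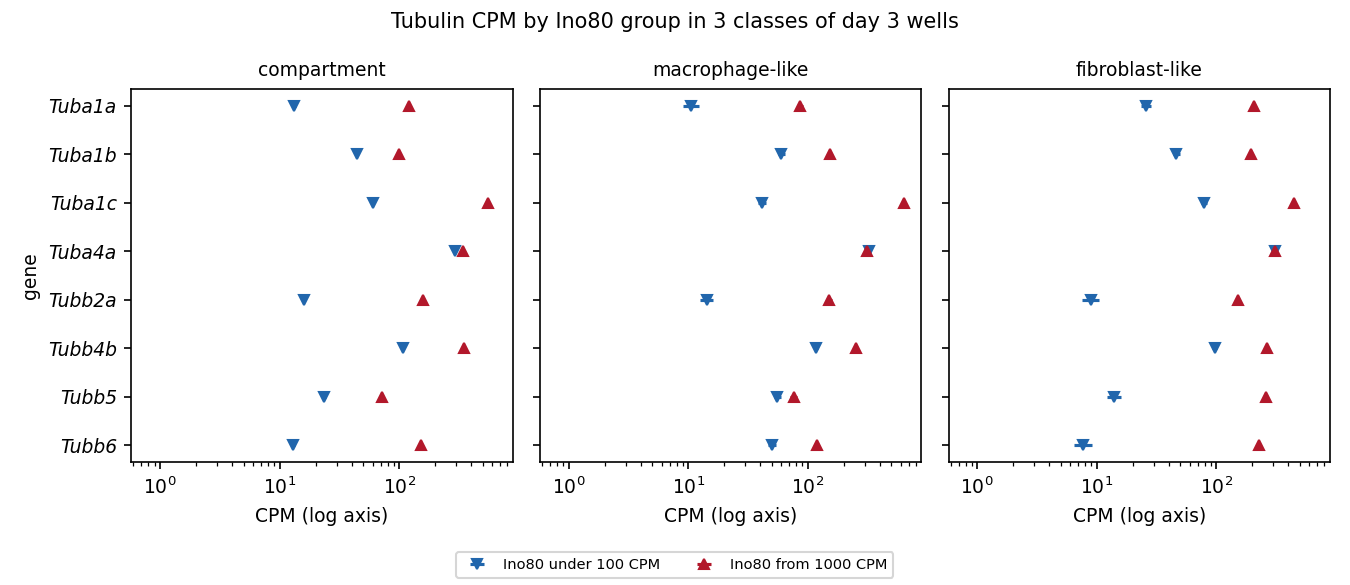
CPM (log axis) of the 8 measured tubulin genes in day 3 wells with Ino80 under 100 CPM and from 1000 CPM, in the compartment, macrophage-like and fibroblast-like wells, with 95% counting intervals. Tuba4a lies at 291 to 344 CPM in all 6 groups, and Tuba1c at 443 to 635.5 CPM in the high and 41.2 to 78.6 CPM in the low groups.

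For most tubulin genes, day 1 classes differed less from the compartment than the Ino80-high and Ino80-low wells of day 3 did from each other. Tubb5 did not, with a log2 ratio of 1.66 in macrophage-like wells against 1.61 between the Ino80 groups. Nor did Tuba4a, with -0.97 in fibroblast-like wells against 0.24. On day 1, 97 macrophage-like wells were at least 2-fold above the compartment for 3 of 8 genes, where 16.2% of measured genes were: Tubb5 at 71.5 against 22.6 CPM, Tubb6 at 39.0 against 16.0 CPM and Tuba1b at 149.95 against 68.0 CPM. The 147 fibroblast-like wells were at least 2-fold above it for 2 of 8, where 11.7% of measured genes were: Tuba1a at 79.6 against 26.3 CPM and Tubb6 at 39.7 against 16.0 CPM. Their Tuba4a level was 85.1 CPM, against 167 CPM in the compartment, a log2 ratio of -0.97. The 381 endothelial-like wells were at least 2-fold above it for 1 of 8, Tubb5 at 60.6 CPM, where 6.76% of measured genes were. The ventricular list summed to 97412, 100656 and 106417 CPM in these 3 classes.

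Tubb4b was the gene most alike across classes, at 85.9, 89.2, 107 and 103 CPM in macrophage-like, fibroblast-like, endothelial-like and compartment wells of day 1 and at 211, 215, 220.5 and 222 CPM in those of day 2. The day 2 library was thus at least 2-fold above day 1 for Tubb4b in all 4 classes. The non-muscle classes held much ventricular RNA on day 1, so their tubulin reads cannot be assigned to one cell type. For Tuba4a the day 1 and day 2 values were 85.1 and 304 CPM in fibroblast-like, 182 and 263 CPM in macrophage-like and 165 and 326 CPM in endothelial-like wells. Tubb6 was at 13.3 and 42.1 CPM in endothelial-like, 39.0 and 93.5 CPM in macrophage-like and 39.7 and 101 CPM in fibroblast-like wells, above 2-fold in each. Tubb5 in endothelial-like wells was level between these days, at 60.6 and 59.9 CPM. In all, 3 of 8 genes in macrophage-like, 4 of 8 in fibroblast-like and 2 of 8 in endothelial-like wells were at least 2-fold higher on day 2, where 14.6%, 12.3% and 8.81% of measured genes were.

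Other genes of the microtubule system were counted from lists chosen for their roles, and each count is to be read against the 23.2% of all measured genes that were at least 2-fold higher and the 11.5% lower in the day 3 high wells, with a median log2 ratio of 0.26. Of 18 measured genes for tubulin folding (the chaperonin, prefoldin and cofactors that fold new tubulin), 4 were at least 2-fold higher and 0 lower in the day 3 high wells, with a median log2 ratio of 0.84, so that the count was near the share of all genes. The prefoldin subunit Pfdn4 had the highest ratio, at 30.8 against 8.98 CPM, and Pfdn6 the lowest, at 23.7 against 37.0 CPM. Of 17 measured microtubule-binding genes, 4 were higher and 2 lower, again near those shares, from Map1b, a stabilising protein of growing neurites, at 61.6 against 12.1 CPM, to Clasp2, a plus-end binding protein, at 4.41 against 22.9 CPM. Of 15 measured motor genes, 2 were higher and 0 lower, below the share of all genes, from the dynein light chain Dynll1 at 79.0 against 14.6 CPM to the kinesin Kif1b at 127 against 194 CPM.

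Genes that modify tubulin were led by a pair of opposite sign. Ttll7, a ligase that adds glutamates to beta-tubulin, was at 41.9 CPM in the high and 3.59 CPM in the low wells, and Ttll1, part of a complex that adds glutamates to tubulin, at 20.3 and 232 CPM. They were the only 2 of the 7 measured genes of that list at least 2-fold apart, 1 in each direction, beside 23.2% and 11.5% of all genes. Of 6 intermediate filament and linker genes, 5 were higher, where 23.2% of all measured genes were, and 0 lower, with a median log2 ratio of 2.00, from nestin (Nes) at 92.7 against 12.8 CPM to plectin (Plec) at 164 against 104 CPM. Of 5 measured nucleation genes, 0 were higher and 1 lower, where 11.5% of all measured genes were lower, Pcnt, a scaffold of the centrosome, at 29.1 against 61.1 CPM, and Tubgcp2 had the highest ratio, at 20.6 against 16.1 CPM.

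Of the 11 other tubulin genes, 2 were measured. Tuba8, an alpha-tubulin known from muscle and brain, was at 8.93 CPM in the high and 43.1 CPM in the low wells. Its log2 ratio of -2.27 was the reverse of those of the measured members above, apart from Tuba4a, which was nearly level. Tuba8 was at 20.8 CPM on day 1 and 36.2 CPM on day 2. The gamma-tubulin Tubg1, which nucleates microtubules, was at 11.9 and 15.7 CPM in the high and low wells. Tubb3, a beta isotype known from neurons, was under the minimum, at 8.67 CPM in the high and 0.10 CPM in the low wells.

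Tubulin mRNAs are degraded when free tubulin is abundant, a feedback in which TTC5 binds the start of the new chain and recruits SCAPER and the CCR4-NOT deadenylase. Of the 3 genes of that list only Scaper was measured, at 32.0 CPM in the high and 41.6 CPM in the low wells, and at 64.4 and 51.9 CPM on days 1 and 2. The codons read first, with those after the start codon in capitals, are shown because the feedback reads their product. They differed in letters within each family, but the codons at each position are synonymous.
Tuba1c: atgCGTGAGTGC
Tuba4a: atgCGCGAGTGC
Tubb2a: atgCGCGAGATC
Tubb4b: atgAGGGAGATC
Tubb5: atgAGGGAAATC

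Between days 1 and 2 the lists other than intermediate filaments held no gene 2-fold apart. In intermediate filaments 1 of 6 was higher, synemin (Synm), at 29.2 CPM on day 2 against 7.65 CPM on day 1. Vim was lowest in ratio there, at 56.5 against 53.9 CPM. Of all 6426 measured genes 4.44% (285) were at least 2-fold higher and 116 genes lower, so counts in lists this short say little. Of all measured genes, 62.7% had a log2 ratio above 0, with a median of 0.13. Of 17 measured folding genes, 13 had a ratio above 0, with a median of 0.28, from Cct2 at 94.8 against 62.8 CPM to Arl2 at 124 against 178 CPM. Of 15 motor genes 11 had a ratio above 0, led by Kif1b at 387 against 194 CPM, a log2 ratio of 0.99.

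The genes most like 4 of the members were sought over 12 sums of wells: the compartment of days 1 and 2, the day 3 high and low wells, and the non-muscle classes of each library with at least 30 wells. These sums share libraries and depth, so the coefficients are a description. The values were log2 of CPM plus 5. Nearest to Tubb4b were Nppb (Pearson r = 0.96), the natriuretic peptide of stressed heart muscle, Psmd3, a proteasome subunit, and Eif3d, a translation initiation factor (both 0.95). Among those nearest to Tuba4a were Hif1a (0.92) and Vmp1 (0.90), and nearest to Tubb5 were Tpm3 (0.91), Rps3 and Sri (both 0.90). Nearest to Tubb6 were Rack1, Sfpq (both 0.96) and Cd63 (0.95). Among the members, the coefficient was 0.88 between Tubb2a and Tubb4b, 0.85 between Tuba1c and Tubb6, 0.85 between Tuba1b and Tubb5, and 0.09 between Tuba1a and Tuba4a.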

How the data were processed

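The values deposited by the authors are raw counts of reads, whole numbers with no normalization, for each gene in each well. Per the submitters' processing notes, cutadapt, STAR and featureCounts were used with mm10; versions, annotation, strand setting and handling of multiply mapped reads were not given in the sources used here. Wells with at least 1000 counts and 300 genes were kept. They were clustered with scanpy 1.11.5 (2000 variable genes, 30 components, 15 neighbours, Leiden resolution 0.5), and a cluster was named from at least 3 markers that were 2-fold higher and at 20 CPM or more. Doublets were not called. Counts were summed over the wells of a group and divided by nuclear-encoded totals. Intervals are exact Poisson (CPM) and exact binomial (ratios), at 95%, and cover counting error only. A gene was measured at a mean of at least 10 CPM and counted as apart at 2-fold. There was 1 library per day, so no p-value is given. The sums were tested on simulated data. Gene symbols, coordinates and sequences come from GENCODE M21. The members and lists were chosen with earlier results of these data known. All members are named, as are the highest and lowest measured gene of each list and the 3 genes most like Tubb4b, Tuba4a, Tubb6 and Tubb5, apart from a few items that are not reported here. Genes that lead a cluster, marker lists, Ino80, Myh6, Stk16, Tubb3 and Tubb4b-ps1 were named after their values were seen. Alternatives were another total, median-of-ratios factors, other minimums, per-well means, thinning, other wells and other clusterings.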

Additional observations from a re-analysis of the deposited data

How the results depend on the processing

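Each of the 6 main comparisons was repeated with other totals, size factors, minimums, wells and clusterings. Counts of tubulin genes at least 2-fold apart moved by over 1.5 times as follows. Day 2 against day 1 gave 3 as reported, 1 with median-of-ratios size factors and 7 in wells of 25% to 35% mitochondrial counts. Day 3 against day 1 gave 4 as reported, 7 with the total over all genes, and 2 at a minimum of 50 CPM and over all kept wells. Day 3 against day 2 gave 1 as reported, 0 in wells of 25% to 35% mitochondrial counts, and 2 with the total over all genes, median-of-ratios factors, per-well means and thinning. Day 1 against the day 3 low wells gave 1 as reported, 2 with no minimum, without the well with most counts and over all kept wells, and 0 at 50 CPM, with stricter wells and with 1000 variable genes. Day 2 against the low wells gave 5 as reported, 3 with the total over all genes and with median-of-ratios factors, and 2 at 50 CPM. High against low wells of day 3 gave 6 to 8 under every setting run, against 7 as reported.

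Over all genes, the counts at least 2-fold apart were 401, 650, 749, 2073, 925 and 1369 in the order day 2 against day 1, day 3 against day 1, day 3 against day 2, day 3 high against low, day 1 against low and day 2 against low. With no minimum they were 14183, 16348, 14562, 17835, 15224 and 16091, and at 50 CPM 58, 134, 153, 696, 198 and 295. The total over all genes gave 250 for the first, 440 for the third, 589 for the fifth and 713 for the last. Wells of 25% to 35% mitochondrial counts gave 1328, 1613 and 1338 for the first 3 and 1845 for the fifth.

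Median-of-ratios factors set the median of all genes, 0.13, -0.11, -0.24, 0.26, 0.24 and 0.38 in the same order, to 0. The share of higher genes among those apart went from 71.1% to 49.9%, 45.7% to 58.9%, 25.5% to 58.0%, 66.9% to 51.0%, 74.9% to 52.5% and 84.1% to 50%. With the total over all genes it was 87.4% for the second, 79.3% for the third, 31.7% for the fifth and 48.4% for the last. Signs that depended on the setting were those of Tuba1b (day 3 against day 1, -0.22 to 0.34), Tuba4a (high against low, -0.01 to 0.36), Tuba4a (day 2 against low, -0.13 to 0.33), and Tuba1c (-0.74 to 0.51), Tubb4b (-0.43 to 0.37) and Tubb5 (-0.64 to 0.64) in day 1 against low, besides 6 of 8 genes in day 3 against day 2. The cause was not tested. No paired analysis was possible because each day has 1 library. Depth limits Tubb2b, which stayed under the minimum.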
